A study of Sus scrofa with 6 samples.

Results

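The genes described here are the molecular chaperones of the heat shock families and the protein disulfide isomerases of the pig oocyte. Members were taken by symbol from the genes of 6 single-oocyte libraries: symbols that start with HSP, DNAJ, CCT and a digit, or PDIA. Of 82 matching genes, HSPA9, DNAJC15 and DNAJC19 were left out by that rule, which left 79 of 19300 genes. A mean of at least 1 FPKM over the 6 oocytes was reached by 68 members, and the 11 others lay below it. FPKM counts the fragments of a gene, scaled by the length of its transcript and by the depth of the library. It is a share of a library, so the RNA content of an oocyte is not given by it. Ratios of FPKM between different genes depend on the listed transcript lengths and need not be ratios of transcript numbers. The study set 3 BCB-negative against 3 BCB-positive oocytes of the pig (Sus scrofa) at the germinal vesicle stage, the arrested state before meiosis resumes. Brilliant cresyl blue (BCB) stains immature oocytes and is used to sort those that have finished growing (stained, BCB-positive) from those that have not. Both classes came from antral follicles of ovaries brought to the laboratory at 30 °C within 3 hours. They were stripped of cumulus cells and of the zona pellucida and lysed one by one with no maturation culture. The labels give no strain, age or animal for any oocyte, so a class is treated as a single sample made of 3 cells, with no test between classes.

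Chaperones bind unfolded or partly folded proteins and keep them from aggregating. HSP70 proteins work in cycles of ATP: J proteins of the DNAJ families bring substrates and start ATP hydrolysis, and HSP110 proteins release the nucleotide. HSP90 acts later on kinases, receptors and other clients, the CCT ring encloses actin and tubulin, and HSPD1 with its lid HSPE1 encloses proteins in mitochondria. In the endoplasmic reticulum (ER), where zona glycoproteins and secreted growth factors are made, HSPA5, HSP90B1 and the disulfide isomerases fold new proteins. Oocytes store transcripts of such proteins before transcription stops at the end of growth.

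Expected counts summed to between 7122749 and 9238987 per oocyte. The members held between 44350 and 112980 of them. BCB-positive oocyte 3, the deepest library, stood apart: its FPKM values summed to 668430, against 784781 to 811744 in the others. The called members and most family sums are therefore given with and without it, while some other differences are given with it only. Oocyte markers were found in every library, though NLRP5 was at 0 FPKM in BCB-negative oocyte 2 and reached at most 2.11 FPKM elsewhere. DAZL was at 1.29 to 4.79 FPKM. The 10 summed to between 16492 and 34913 FPKM, with ZP3 at 5602 to 18993 FPKM. Most of that sum was ZP3, ZP4 and KPNA7. Of 10 cumulus and granulosa markers, FSHR, HAS2 and FOXL2 were not analysed here. INHBA was at 19.8 to 31.9 FPKM and made up most of the list's sum, and the 6 others reached at most 1.79 FPKM. That value was of STAR, whose classes did not overlap, at 0.05, 0.37 and 0.16 FPKM in the BCB-negative and 1.56, 1.79 and 0.4 FPKM in the BCB-positive oocytes. That sum was 30.5, 21.8 and 19.9 FPKM in the BCB-negative and 34.4, 30.4 and 26.6 FPKM in the BCB-positive oocytes. The theca and stroma list and the blood and endothelium list reached at most 3.33 and 3.76 FPKM in any oocyte. Of 8 immediate early genes, taken as a sign of handling, 4 were compared. IER2 was higher in the BCB-positive oocytes, with 3.4, 8.87 and 3.83 FPKM in the BCB-negative and 19.8, 25.4 and 13.1 FPKM in the BCB-positive oocytes, and EGR1 overlapped between the classes at 10.98, 21.5 and 9.27 FPKM in the BCB-negative and 9.05, 11.1 and 21.3 FPKM in the BCB-positive oocytes. The part of these genes in the chaperone levels was not tested.

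As a group the chaperone transcripts were most abundant in BCB-positive oocyte 3, and few separated the 2 classes. The 79 members summed to 4140.1, 4310.4 and 3825 FPKM in BCB-negative oocytes 1 to 3 and to 4075, 4972 and 6970.3 FPKM in BCB-positive oocytes 1 to 3. This was 0.51, 0.53 and 0.48 percent of all FPKM in the BCB-negative oocytes, against 0.52, 0.61 and 1.04 percent in the BCB-positive ones. BCB-positive oocyte 1 thus lay among the BCB-negative oocytes, and BCB-positive oocytes 2 and 3 lay above them. Of the 68 members compared, 39 had their highest value in BCB-positive oocyte 3, which is 57.4 percent, against 32.6 percent of all 11493 genes compared. The median member was at 18.6, 18.7 and 17.2 FPKM in the BCB-negative and 18.7, 23.5 and 36.5 FPKM in the BCB-positive oocytes.

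Differences between the classes are given as the BCB-positive minus the BCB-negative mean of log2(FPKM + 1), a scale that understates differences of low genes. The SD beside a difference is the spread between oocytes of a class on that scale, pooled over the classes. A member is called higher or lower in BCB-positive oocytes where all 3 oocytes of one class lay beyond all 3 of the other and the difference was at least 1.5-fold. By this rule 6 of the 68 members were higher, beside 5.75 percent of all genes compared, and 2 were lower, beside 2.66 percent. With no limit on size, 8 members were higher without overlap, beside 7.44 percent of all genes, and 2 were lower, beside 4.03 percent. The members' shares of 8.82 percent higher and 2.94 percent lower lay near those of all genes. Without BCB-positive oocyte 3 the counts were 4 higher, beside 7.19 percent, and 4 lower, beside 4.4 percent. Of the 8 called members 6 were still called, and HSPH1 and DNAJB11 were not. With BCB-positive oocyte 1 left out instead, 22 members were called higher, beside 13.7 percent of all genes. The median difference of the members was 0.26, against 0.11 over all genes compared. Without BCB-positive oocyte 3 it was 0.13 against 0.05. By level, 10 members averaged at least 100 FPKM, 41 averaged 10 to 100 and 17 averaged 1 to 10.

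**Figure D1:**
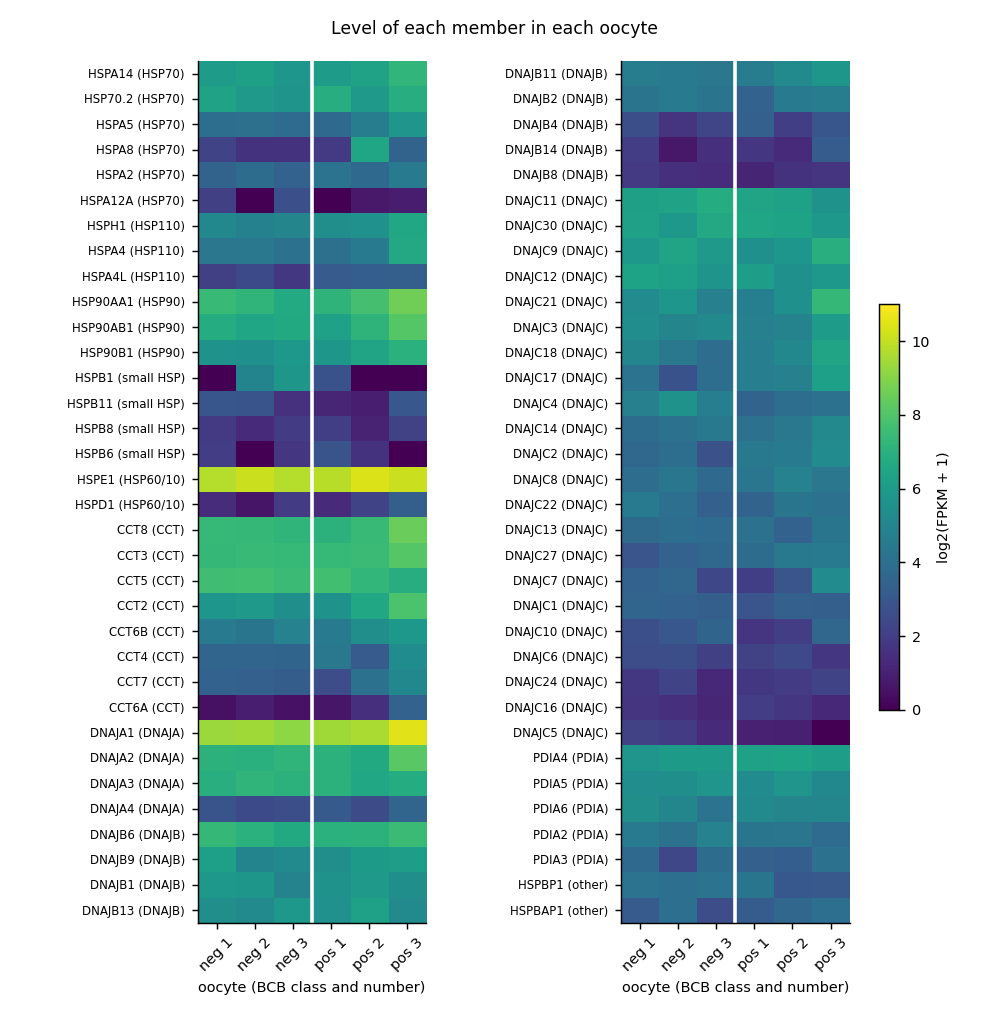
Level of the 68 compared members as log2(FPKM + 1) (colour) in each of the 6 oocytes (columns, BCB-negative left of the white line), with the family in brackets. HSPE1 and DNAJA1 are the brightest rows, HSPD1 and CCT6A are dim beside their partners, and 39 of the 68 rows are brightest in BCB-positive oocyte 3.

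**Figure D2:**
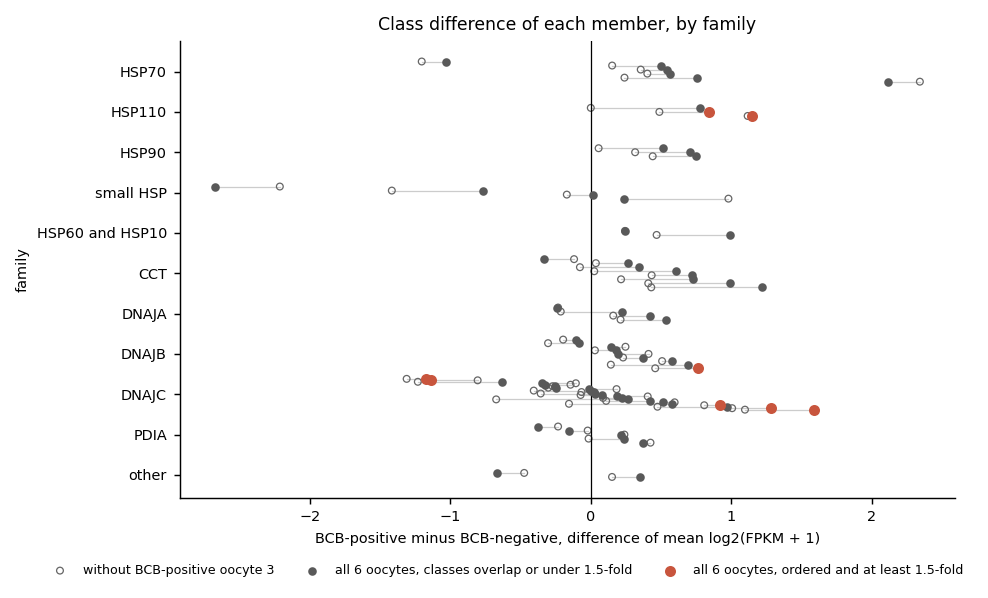
Difference of mean log2(FPKM + 1) between BCB-positive and BCB-negative oocytes for each of the 68 members, by family, with all 6 oocytes (filled) and without BCB-positive oocyte 3 (open), joined by a line. The 8 red points are the members called by the order and size rule, and many filled points to the right of 0 move towards it without that oocyte.

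Of the 3 HSP110 genes, the nucleotide exchange factors that reset HSP70, 2 were called higher in BCB-positive oocytes, beside 5.75 percent of all genes. HSPA4L alone was called without BCB-positive oocyte 3, beside 7.19 percent. HSPH1 was at 34.6, 27.9 and 31.3 FPKM across BCB-negative oocytes 1 to 3, against 42.4, 45.9 and 93.03 FPKM across BCB-positive oocytes 1 to 3. Its classes did not overlap, and the difference was 0.84 (SD 0.45), with 0.49 without BCB-positive oocyte 3, which is under 1.5-fold. HSPA4L, a relative of HSPA4 known from the testis, was at 3.19, 4.5 and 2.46 FPKM across BCB-negative oocytes 1 to 3, against 8.04, 8.63 and 9.02 FPKM across BCB-positive oocytes 1 to 3. All 3 BCB-positive oocytes were close to each other and above all BCB-negative ones, with a difference of 1.15 (SD 0.24) and of 1.12 without BCB-positive oocyte 3. Its level rested on 292 (95% interval 259 to 327) summed counts in the BCB-negative and 831 (95% interval 775 to 889) in the BCB-positive oocytes. These are exact Poisson intervals of rounded expected counts. They cover counting error only, since amplified reads without molecular identifiers are not independent molecules. HSPA4L overlaps LOC102167943 in the reference annotation, which was at 0 to 3.88 FPKM. HSPA4, the third member, was at 19.2, 20.2 and 16.7 FPKM in the BCB-negative and 15.6, 22.3 and 98.6 FPKM in the BCB-positive oocytes. Only BCB-positive oocyte 3 was high, and the difference of 0.78 (SD 0.98) was 0.00 without it. Summed over the family, the level was 57.05, 52.6 and 50.5 FPKM in the BCB-negative and 66.1, 76.8 and 201 FPKM in the BCB-positive oocytes, a difference of 0.90 (SD 0.61) and of 0.41 without BCB-positive oocyte 3.

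Of 10 HSP70 genes in the files, 6 were compared and 0 were called, beside 5.75 percent of all genes called higher and 2.66 percent lower. HSPA14, which binds the ribosome together with the J protein DNAJC2, was at 67.5, 74.5 and 53.6 FPKM across BCB-negative oocytes 1 to 3, against 64.3, 80.3 and 150.1 FPKM across BCB-positive oocytes 1 to 3. BCB-positive oocyte 1 lay within the BCB-negative range, and only in BCB-positive oocyte 3 were its counts not whole. HSP70.2, a pig gene of the HSP70 group, was at 78.8, 61.5 and 50.4 FPKM in the BCB-negative and 113, 60.7 and 116 FPKM in the BCB-positive oocytes. BCB-positive oocytes 1 and 3 stood above the BCB-negative oocytes, and BCB-positive oocyte 2 lay within their range. HSPA5, the HSP70 of the ER, was at 14.8, 15.5 and 13.5 FPKM in the BCB-negative and 12.4, 24.2 and 53 FPKM in the BCB-positive oocytes. It was highest in BCB-positive oocyte 3, and its difference of 0.76 (SD 0.71) was 0.24 without that oocyte. HSPA2, an HSP70 required in male meiosis, was at 10.3, 13.7 and 9.92 FPKM in the BCB-negative and 17.01, 12.5 and 22.03 FPKM in the BCB-positive oocytes, with BCB-positive oocyte 2 inside the BCB-negative range.

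HSPA8, the constitutive cytosolic HSP70, differed most between single oocytes of the HSP70 genes compared. It was at 3.83, 2.09 and 2.03 FPKM across BCB-negative oocytes 1 to 3, against 2.67, 87.8 and 10.3 FPKM across BCB-positive oocytes 1 to 3. A single oocyte, BCB-positive oocyte 2, held 87.8 FPKM, from 1577 expected counts, while the other 5 were between 2.03 and 10.3 FPKM. Its difference of 2.12 had an SD of 1.67, and BCB-positive oocyte 1 overlapped the BCB-negative oocytes. The expected counts of HSPA8 were not whole in any of the 6 oocytes, so reads were shared with another gene and its level is uncertain. HSP70 genes also resemble each other in sequence, so HSP70.2 is uncertain too, although its counts were whole in every oocyte. HSPA12A, a distant relative, was at 3.23, 0 and 5.34 FPKM in the BCB-negative and 0, 0.69 and 0.85 FPKM in the BCB-positive oocytes and overlapped between the classes. HSPA12B, HSPA13, HSPA6 and HSPA1L averaged below 1 FPKM. HSPA6, which other cells make under heat, and HSPA1L, known from the testis, reached at most 0.79 and 0.8 FPKM in any oocyte.

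Summed HSP70 stood at 179, 168 and 136 FPKM in the BCB-negative and 210.0, 267 and 353 FPKM in the BCB-positive oocytes. The classes did not overlap, with a difference of 0.76 (SD 0.30) and of 0.57 without BCB-positive oocyte 3. Without HSPA8 the sum was 175, 165 and 134 FPKM and 207, 179.5 and 343 FPKM and still did not overlap, with a difference of 0.57. The difference without BCB-positive oocyte 3 still held the uncertain HSPA8 value of 87.8 FPKM in BCB-positive oocyte 2. That without HSPA8 still held BCB-positive oocyte 3. With both left out, BCB-positive oocyte 2 at 179.5 FPKM lay just above BCB-negative oocyte 1 at 175 FPKM, and the difference was not calculated.

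All 3 HSP90 genes were higher on average in BCB-positive oocytes. None was called, beside 5.75 percent of all genes called higher and 2.66 percent lower. BCB-positive oocyte 1 lay within or below the BCB-negative range for each. HSP90AA1, the inducible cytosolic form, was at 175, 146 and 104 FPKM across BCB-negative oocytes 1 to 3, against 139.7, 213 and 389 FPKM across BCB-positive oocytes 1 to 3. HSP90AB1, the constitutive form, was at 113, 89.3 and 103 FPKM in the BCB-negative and 77.8, 142 and 274 FPKM in the BCB-positive oocytes, and it overlaps SLC35B2, at 40.6 to 65.6 FPKM. HSP90B1 of the ER was at 48.6, 44.9 and 57.8 FPKM in the BCB-negative and 55.8, 83.7 and 129.9 FPKM in the BCB-positive oocytes, with BCB-positive oocyte 1 below BCB-negative oocyte 3. The differences were 0.70 (SD 0.59) for HSP90AA1, 0.51 (SD 0.65) for HSP90AB1 and 0.75 (SD 0.45) for HSP90B1. Without BCB-positive oocyte 3 they were 0.32, 0.06 and 0.44. The level of HSP90AA1 over that of HSP90AB1 was 1.55, 1.64 and 1.01 in the BCB-negative oocytes, against 1.796, 1.503 and 1.42 in the BCB-positive ones. The inducible form was thus at or above the constitutive form in each oocyte, and the ratio overlapped between the classes.

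HSPE1 was the most abundant member in 5 of the 6 oocytes, while its partner HSPD1 was near the lower end. HSPE1, the mitochondrial co-chaperonin, was at 868, 1097 and 863 FPKM across BCB-negative oocytes 1 to 3, against 902, 1364 and 1108 FPKM across BCB-positive oocytes 1 to 3. HSPD1, the chaperonin it caps, was at 1.63, 0.54 and 2.76 FPKM in the BCB-negative and 1.45, 3.8 and 9.13 FPKM in the BCB-positive oocytes. The level of HSPE1 over that of HSPD1 ran from 121 in BCB-positive oocyte 3 to 2032 in BCB-negative oocyte 2, and both genes overlapped between the classes. Counts of both were whole in all oocytes, from 8 to 164 for HSPD1. The listed transcript was 1998 bases for HSPD1 and 584 bases for HSPE1. HSPE1 alone held between 15.9 and 27.4 percent of the members' summed FPKM.

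The CCT ring is built from 8 different subunits, of which TCP1 falls outside the symbols used and the others are members. None of the 8 CCT genes was called, beside 5.75 percent of all genes called higher and 2.66 percent lower. Of the 8, 7 were highest in BCB-positive oocyte 3, beside 32.6 percent of all genes. CCT8 was at 166, 159.8 and 148 FPKM across BCB-negative oocytes 1 to 3, against 132, 169 and 362 FPKM across BCB-positive oocytes 1 to 3, and CCT3 at 159.6, 175 and 166 FPKM in the BCB-negative and 165, 178 and 275 FPKM in the BCB-positive oocytes. CCT3 overlaps TSACC, at 20.1 to 41.3 FPKM. CCT2 was at 54.05, 58.6 and 44.1 FPKM in the BCB-negative and 49.5, 96.7 and 235 FPKM in the BCB-positive oocytes, with BCB-positive oocyte 1 inside the BCB-negative range. CCT5 went the other way and was lowest in BCB-positive oocyte 3, at 195, 204 and 178 FPKM in the BCB-negative and 201, 156 and 114 FPKM in the BCB-positive oocytes.

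CCT4 and CCT7 were below these 4 in each oocyte. CCT4 was at 10.9, 11.2 and 10.8 FPKM in the BCB-negative and 20.3, 8.06 and 39.2 FPKM in the BCB-positive oocytes, and CCT7 at 9.84, 9.43 and 8.58 FPKM in the BCB-negative and 5.12, 16.8 and 34.1 FPKM in the BCB-positive oocytes. For each of these, the spread among the BCB-negative oocytes was small beside that among the BCB-positive oocytes. CCT6B, a form of the sixth subunit known from the testis, was at 21.6, 18.3 and 28.7 FPKM in the BCB-negative and 22.4, 42.03 and 56.8 FPKM in the BCB-positive oocytes, while CCT6A, the form of most tissues, was at 0.42, 0.88 and 0.45 FPKM in the BCB-negative and 0.61, 1.78 and 9.87 FPKM in the BCB-positive oocytes. CCT6B lay above CCT6A in each of the 6 oocytes, and both were highest in BCB-positive oocyte 3. The counts of CCT6A were not whole in any oocyte, so its level is uncertain. TCP1 was at 86.05, 73.3 and 81.5 FPKM in the BCB-negative and 75.8, 81.5 and 154 FPKM in the BCB-positive oocytes, and overlapped between the classes. The highest CCT level over the lowest, CCT6A left out, was 19.8, 21.7 and 20.8 in the BCB-negative and 39.2, 22.03 and 10.6 in the BCB-positive oocytes, so transcripts of the subunits were far from equal in each oocyte. Summed CCT was 617, 637 and 585 FPKM and 596, 667 and 1125 FPKM. Its difference was 0.32 (SD 0.35), and 0.04 without BCB-positive oocyte 3.

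**Figure D3:**
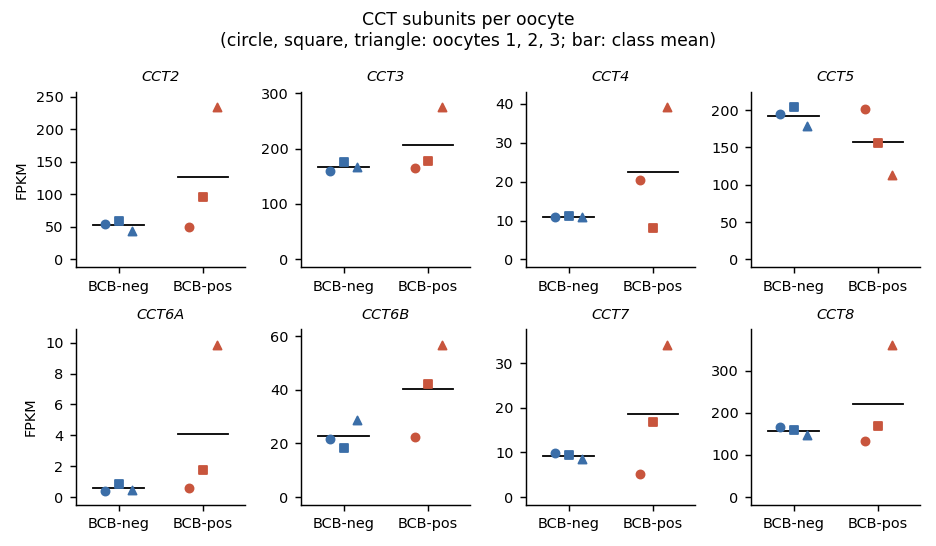
FPKM of each CCT gene in the BCB-negative (blue) and BCB-positive (red) oocytes, with the class mean as a bar; each panel has its own axis from 0. The triangle of BCB-positive oocyte 3 is the highest point in each panel other than that of CCT5, where it is the lowest.

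The DNAJA and DNAJB families hold the J proteins that hand substrates to HSP70. DNAJA1, a main cytosolic J protein, was at 655, 680.1 and 568 FPKM across BCB-negative oocytes 1 to 3, against 694, 773 and 1443 FPKM across BCB-positive oocytes 1 to 3. Its classes did not overlap, but the difference of 0.54 (SD 0.41) was just under 1.5-fold, which is 0.585 on the log2 scale, and was 0.21 without BCB-positive oocyte 3. In that oocyte DNAJA1 was the most abundant of all members. DNAJA2, its cytosolic relative, was at 134, 126 and 146 FPKM in the BCB-negative and 134, 101 and 290.2 FPKM in the BCB-positive oocytes, lowest in BCB-positive oocyte 2 and highest in BCB-positive oocyte 3. DNAJA3 of mitochondria was at 123, 148 and 133 FPKM in the BCB-negative and 134, 96.9 and 111 FPKM in the BCB-positive oocytes and was among the members with a lower BCB-positive mean. DNAJA4 was at 6.15, 4.6 and 5.33 FPKM in the BCB-negative and 7.66, 4.77 and 11.2 FPKM in the BCB-positive oocytes. DNAJA4 overlaps WDR61 in the reference annotation, and the latter was at 279.5 to 629 FPKM, so DNAJA4 is uncertain. Summed DNAJA was 918, 958 and 853 FPKM and 969, 976 and 1856 FPKM. It did not overlap as deposited but did under size factor scaling and when expected counts were scaled to library totals (CPM), and the difference was 0.41 (SD 0.38) and 0.10 without BCB-positive oocyte 3.

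Among 9 compared DNAJB genes, 1 was called higher, beside 5.75 percent of all genes. DNAJB11, the J protein of the ER that feeds HSPA5, was at 23.4, 21.4 and 19.3 FPKM across BCB-negative oocytes 1 to 3, against 23.99, 36.5 and 56.3 FPKM across BCB-positive oocytes 1 to 3. The classes were separated narrowly, by BCB-negative oocyte 1 at 23.4 and BCB-positive oocyte 1 at 23.99 FPKM. Its difference was 0.76 (SD 0.43), and 0.46 without BCB-positive oocyte 3, under the limit on size. The most abundant of the family was DNAJB6, which keeps aggregation-prone proteins soluble, at 161, 130.4 and 100.4 FPKM in the BCB-negative and 128, 134 and 180.0 FPKM in the BCB-positive oocytes. DNAJB1, the heat-inducible partner of HSP70, was at 57.97, 56.1 and 29.6 FPKM in the BCB-negative and 49.01, 60.9 and 44.2 FPKM in the BCB-positive oocytes and overlapped between the classes, with counts not whole in the BCB-positive oocytes. DNAJB9, which acts in the ER and is induced by its stress response, was at 73.8, 30.4 and 37.5 FPKM in the BCB-negative and 42.3, 62.9 and 69.6 FPKM in the BCB-positive oocytes. DNAJB13, a J protein of the sperm flagellum, was at 42.4, 37.4 and 56.4 FPKM in the BCB-negative and 46.03, 77.7 and 37.5 FPKM in the BCB-positive oocytes. It was highest in BCB-positive oocyte 2 and overlapped between the classes. DNAJB4 had the largest spread of the family among genes of at least 5 FPKM, at 5.17, 2.19 and 3.89 FPKM in the BCB-negative and 9.4, 3.08 and 6.59 FPKM in the BCB-positive oocytes. DNAJB2, DNAJB8 and DNAJB14 overlapped between the classes at differences of -0.08, -0.11 and 0.69. That of DNAJB14 was 0.14 without BCB-positive oocyte 3. DNAJB5 and DNAJB12 averaged below 1 FPKM.

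The DNAJC family joins a J domain to many other domains, and 5 of its 22 compared genes were called, 3 higher and 2 lower in BCB-positive oocytes, beside 5.75 and 2.66 percent of all genes. DNAJC17, linked to splicing, was at 17.4, 5.73 and 14.9 FPKM across BCB-negative oocytes 1 to 3, against 24.7, 26.8 and 72.9 FPKM across BCB-positive oocytes 1 to 3. Its difference was 1.59 (SD 0.82), and 1.097 without BCB-positive oocyte 3. DNAJC17 overlaps ZFYVE19, which was at 21.2 to 40.5 FPKM, so its level is uncertain. DNAJC2 binds the ribosome together with HSPA14. It was at 12.1, 14.9 and 5.64 FPKM in the BCB-negative and 20.9, 21.8 and 38.7 FPKM in the BCB-positive oocytes. All 3 BCB-positive oocytes were above the BCB-negative ones, BCB-negative oocyte 3 was lowest, and the difference was 1.28 (SD 0.58), with 1.01 without BCB-positive oocyte 3. Its counts were not whole in BCB-negative oocyte 1 alone. Its partner HSPA14 differed by 0.50 (SD 0.47) and overlapped. DNAJC27, which carries a RAB-like GTPase domain, was at 6.46, 10.03 and 12.3 FPKM across BCB-negative oocytes 1 to 3, against 13.8, 20.9 and 21.6 FPKM across BCB-positive oocytes 1 to 3. Its difference was 0.92 (SD 0.38), and 0.81 without BCB-positive oocyte 3, so DNAJC17, DNAJC2 and DNAJC27 kept the call without that oocyte.

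DNAJC4, a little-studied membrane J protein, was lower in BCB-positive oocytes, at 26.8, 48.1 and 25.2 FPKM across BCB-negative oocytes 1 to 3, against 10.4, 14.5 and 16.7 FPKM across BCB-positive oocytes 1 to 3. The difference was -1.17 (SD 0.42), and -1.31 without BCB-positive oocyte 3. DNAJC4 overlaps TRPT1, which was at 31.7 to 66.6 FPKM, so its level is uncertain. DNAJC5, the cysteine string protein of secretory vesicles, was at 3.5, 2.77 and 1.46 FPKM across BCB-negative oocytes 1 to 3, against 0.99, 0.98 and 0 FPKM across BCB-positive oocytes 1 to 3, a difference of -1.13 (SD 0.51), or -0.81 with BCB-positive oocyte 3 left out. It rested on 22 (95% interval 13.8 to 33.3) summed counts in the BCB-negative and 6 (95% interval 2.202 to 13.1) in the BCB-positive oocytes, over a listed transcript of 446 bases. In BCB-positive oocyte 3 no count was listed, which allows up to 0.86 FPKM at 3 counts. Its mean over the 6 oocytes was under 5 FPKM, so with a filter at that level DNAJC4 alone was lower.

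**Figure D4:**
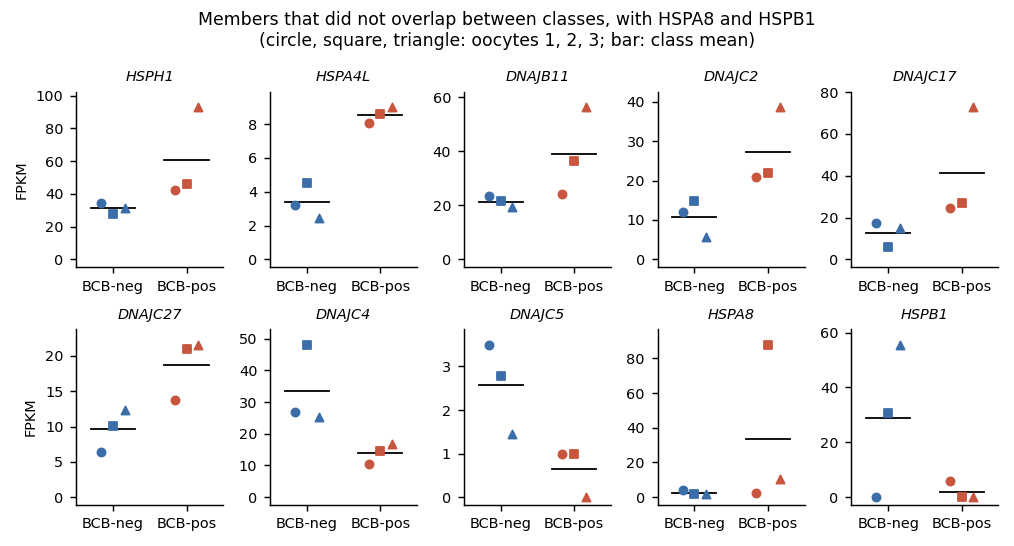
FPKM in the BCB-negative (blue) and BCB-positive (red) oocytes of the 8 members called by the order and size rule, and of HSPA8 and HSPB1, with the class mean as a bar; each panel has its own axis from 0. The class ranges are apart in the first 8 panels, while 1 oocyte carries the BCB-positive mean of HSPA8 and 2 oocytes the BCB-negative mean of HSPB1.

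The other 17 compared DNAJC genes overlapped between the classes, with differences from -0.63 for DNAJC10 to 0.97 for DNAJC18. The latter was 0.47 without BCB-positive oocyte 3. The most abundant were DNAJC11 and DNAJC30 of mitochondria, DNAJC9, a chaperone of histones, and DNAJC12, which helps fold aromatic amino acid hydroxylases. DNAJC11 was at 74.8, 80.8 and 110.3 FPKM in the BCB-negative and 85.7, 76.7 and 49.1 FPKM in the BCB-positive oocytes and was lowest in BCB-positive oocyte 3. DNAJC30 was at 76.5, 57.4 and 97.6 FPKM in the BCB-negative and 88.2, 83.5 and 57.1 FPKM in the BCB-positive oocytes, and DNAJC12 at 82.2, 71.9 and 50.7 FPKM in the BCB-negative and 68, 44.9 and 57.01 FPKM in the BCB-positive oocytes. DNAJC9 was at 56.6, 83.8 and 58.5 FPKM in the BCB-negative and 44.9, 53.5 and 116 FPKM in the BCB-positive oocytes, so it was lower in BCB-positive oocytes 1 and 2 than in any BCB-negative oocyte and highest in BCB-positive oocyte 3. DNAJC7, which binds HSP70 and HSP90 together, had the largest spread among DNAJC genes of at least 5 FPKM, at 10.1, 11.4 and 4.15 FPKM in the BCB-negative and 3.13, 6.57 and 38.4 FPKM in the BCB-positive oocytes, with an SD of 1.29. DNAJC21, needed for ribosome assembly, was at 38.2, 53.6 and 26.9 FPKM in the BCB-negative and 25.5, 45.4 and 160.4 FPKM in the BCB-positive oocytes, and again only BCB-positive oocyte 3 was high. DNAJC11 and DNAJC30 overlap THAP3 and VPS37D in the reference annotation and are uncertain. DNAJC10, a reductase of the ER, was at 5.44, 6.81 and 10.8 FPKM in the BCB-negative and 2.23, 2.96 and 11.4 FPKM in the BCB-positive oocytes. Its BCB-positive oocytes 1 and 2 lay below all BCB-negative oocytes and BCB-positive oocyte 3 lay above them. Without that oocyte DNAJC10 and the small HSP gene HSPB11 were added to the lower members, at differences of -1.23 and -1.42. The members DNAJC1, DNAJC3, DNAJC6, DNAJC8, DNAJC13, DNAJC14, DNAJC16, DNAJC18, DNAJC22 and DNAJC24 were between 1.3 and 84.3 FPKM. Of these, DNAJC1, DNAJC8 and DNAJC22 had counts that were not whole, and DNAJC14 and DNAJC24 overlap other genes, so their levels are uncertain. DNAJC28 averaged below 1 FPKM.

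Small heat shock proteins hold unfolded proteins without using ATP. Of their 8 genes, 4 averaged at least 1 FPKM, and HSPB1 had the largest spread between oocytes. HSPB1 was at 0, 30.5 and 55.6 FPKM across BCB-negative oocytes 1 to 3, against 5.84, 0 and 0 FPKM across BCB-positive oocytes 1 to 3. It was highest in BCB-negative oocyte 3 and listed at 0 in BCB-negative oocyte 1 and in BCB-positive oocytes 2 and 3, where 3 counts would be 0.702, 0.65 and 0.58 FPKM. The classes overlapped at 0, the SD was 2.496, and the counts were not whole where present, so HSPB1 is uncertain. HSPB11, a part of the transport complex of cilia, was at 6.72, 6.2 and 1.95 FPKM in the BCB-negative and 1.25, 0.87 and 6.87 FPKM in the BCB-positive oocytes. HSPB8, which works with BAG3 in the removal of aggregates, was at 2.65, 1.55 and 2.9 FPKM in the BCB-negative and 3.16, 1.08 and 3.34 FPKM in the BCB-positive oocytes, and HSPB6 at 2.97, 0 and 2.38 FPKM in the BCB-negative and 6.15, 2.07 and 0 FPKM in the BCB-positive oocytes. These 3 overlapped between the classes. HSPB2, HSPB3, HSPB7 and HSPB9 averaged below 1 FPKM. Summed, the family was at 14.02, 38.4 and 62.8 FPKM and 19.2, 4.99 and 11.8 FPKM, a difference of -1.54 (SD 0.98) with overlap, and HSPB1 held most of the sum in BCB-negative oocytes 2 and 3.

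None of the 5 disulfide isomerases was called, beside 5.75 percent of all genes called higher and 2.66 percent lower. PDIA4 was at 51.9, 63.5 and 62.9 FPKM across BCB-negative oocytes 1 to 3, against 76.4, 83.4 and 71.01 FPKM across BCB-positive oocytes 1 to 3, and the classes did not overlap. The difference was 0.37 (SD 0.14), below 1.5-fold, and leaving out BCB-positive oocyte 3 gave 0.42. PDIA5 was at 40.7, 43.5 and 52.5 FPKM in the BCB-negative and 38.1, 52.1 and 33.8 FPKM in the BCB-positive oocytes, and PDIA6, which pairs with HSPA5, at 42.2, 31.8 and 17.4 FPKM in the BCB-negative and 37.2, 31.1 and 32.4 FPKM in the BCB-positive oocytes. PDIA2, known from the pancreas, was at 22.5, 16.7 and 28.1 FPKM in the BCB-negative and 18.4, 18.7 and 13.5 FPKM in the BCB-positive oocytes and was lowest in BCB-positive oocyte 3. PDIA3, which works on glycoproteins with calnexin and calreticulin, was at 12.7, 4.12 and 13.9 FPKM in the BCB-negative and 9.42, 8.66 and 15.97 FPKM in the BCB-positive oocytes. Its low value in BCB-negative oocyte 2 gave it the largest SD of the family, 0.68. PDIA2, PDIA3, PDIA5 and PDIA6 overlapped between the classes. Summed PDIA was 170.0, 159.7 and 175 FPKM in the BCB-negative and 179.6, 194 and 167 FPKM in the BCB-positive oocytes. The difference was 0.10 (SD 0.09). Without BCB-positive oocyte 3, which had the lowest sum of its class, the difference was 0.15 and the classes did not overlap. The summed differences of DNAJC, HSP60 with HSP10, and DNAJB were 0.18 (SD 0.30), 0.25 (SD 0.25) and 0.26 (SD 0.25). With that oocyte left out these were -0.07, 0.24 and 0.16. All 3 sums overlapped between the classes with and without that oocyte, and the difference between families was not tested.

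**Figure D5:**
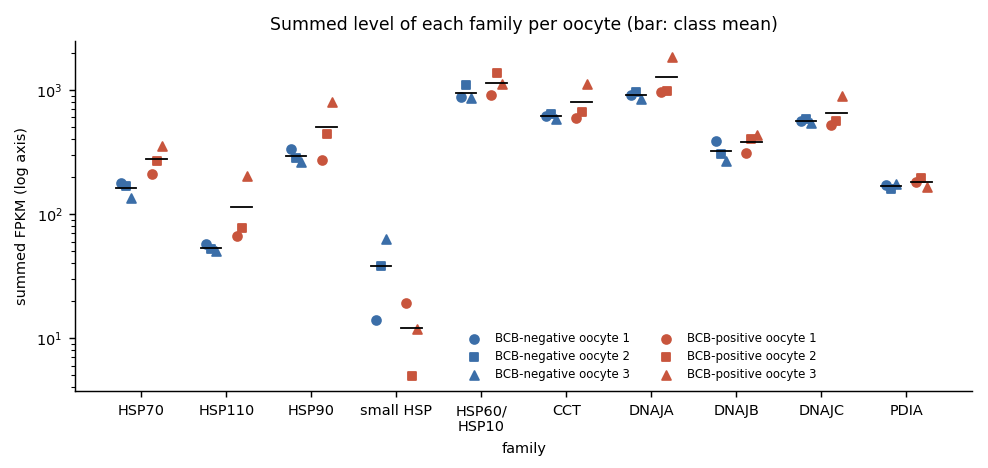
Summed FPKM of each family (log axis) in the BCB-negative (blue) and BCB-positive (red) oocytes, with the class mean as a bar. BCB-positive oocyte 3 (red triangle) is the top point of HSP70, HSP110, HSP90, CCT and the DNAJ families, and the lowest of the BCB-positive points for PDIA.

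The 2 genes with an HSP symbol that fit no family were HSPBP1, a nucleotide exchange factor of HSP70, and HSPBAP1, a binding partner of small heat shock proteins. HSPBP1 was at 17.2, 15 and 16.98 FPKM in the BCB-negative and 18.4, 7.05 and 7.33 FPKM in the BCB-positive oocytes, low in BCB-positive oocytes 2 and 3, and HSPBAP1 at 7.9, 15.1 and 5.05 FPKM in the BCB-negative and 8.11, 11.3 and 15.04 FPKM in the BCB-positive oocytes. Both overlapped between the classes. CCT8L2, DNAJB3, DNAJB7, DNAJC5B, DNAJC5G and HSPG2 also match the rule by symbol and were not analysed here.

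Grouped by place, 12 of 13 ER genes were compared (HSPA5, HSP90B1, DNAJB9, DNAJB11, DNAJC1, DNAJC3, DNAJC10 and the 5 PDIA genes). DNAJB11 was called higher and 0 were called lower, beside the 5.75 and 2.66 percent of all genes. The ER genes summed to 387, 320.0 and 360.4 FPKM in the BCB-negative and 349.7, 443 and 560.0 FPKM in the BCB-positive oocytes, with BCB-positive oocyte 1 inside the BCB-negative range. Their median difference was 0.23, and 0.11 without BCB-positive oocyte 3. Another set of 10 genes held chaperones that heat induces in many cells (HSP70.2, HSPA6, HSPB1, HSPH1, HSP90AA1, DNAJB1, HSPD1 and HSPE1), together with HSPA8 and HSPA1L of the HSP70 family. Of these 8 were compared, of which HSPH1 was called higher and 0 lower, beside the same shares. The set, led by HSPE1, summed to 1220.0, 1422 and 1139 FPKM and 1256, 1837 and 1770.5 FPKM. Its median difference was 0.63, and 0.36 without BCB-positive oocyte 3.

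Other genes of the same pathways were read from lists of co-chaperones, ER folding, the unfolded protein response and mitochondrial folding. The list of cytosolic co-chaperones also held the CCT subunit TCP1 and the heat shock factors HSF1 and HSF2. Of its 26 compared genes, 5 were called higher and 0 lower, beside 5.75 and 2.66 percent of all genes. Their median difference was 0.28, and 0.20 without BCB-positive oocyte 3. The 28 listed genes summed to 3629, 3046 and 3906 FPKM in the BCB-negative oocytes and to 3736, 3733 and 2669.8 FPKM in the BCB-positive ones. That sum was lowest in BCB-positive oocyte 3, but it was led by PDCD5. PDCD5 was at 1433, 940 and 1362 FPKM in the BCB-negative and 1360, 1544 and 535 FPKM in the BCB-positive oocytes. PFDN1 and PFDN2 were also lowest in BCB-positive oocyte 3, whereas several others, such as AHSA1 and STIP1, were highest there. The sum thus does not describe the list gene by gene. AHSA1, which speeds up the ATPase of HSP90, was at 87.3, 61.9 and 69.99 FPKM in the BCB-negative and 88.4, 94.7 and 194 FPKM in the BCB-positive oocytes. PTGES3, the HSP90 co-chaperone p23, was at 2.14, 2.93 and 3.3 FPKM in the BCB-negative and 5.69, 5.36 and 5.31 FPKM in the BCB-positive oocytes. The other called genes were BAG4, PFDN4 and TXNDC9, with differences of 0.94, 0.65 and 0.69, and of 0.65, 0.50 and 0.54 without BCB-positive oocyte 3. The difference was 0.69 for AHSA1 (0.34 without that oocyte) and 0.78 for PTGES3 (0.80 without it). With that oocyte left out AHSA1, PFDN4 and TXNDC9 were thus under 1.5-fold, and BAG4 and PTGES3 were above it. The heat shock factor HSF1, which drives HSP transcription under stress, was at 112, 108 and 119 FPKM in the BCB-negative and 118, 87.7 and 68.2 FPKM in the BCB-positive oocytes, and HSF2 was below 2 FPKM in each oocyte. HSF1 was lowest in BCB-positive oocyte 3 and overlapped between the classes. Its part in the levels of the members was not tested.

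Of 21 compared genes of ER folding, 1 was called higher, SEC62 of the translocation channel, at 9.56, 7.4 and 6.68 FPKM in the BCB-negative and 11.3, 17.9 and 24.9 FPKM in the BCB-positive oocytes, and 0 were lower, beside the same shares of all genes. The difference of SEC62 was 1.05 (SD 0.41); it was 0.80 when BCB-positive oocyte 3 was left out. The lectin chaperone CALR was at 234, 241 and 322 FPKM in the BCB-negative and 298, 135 and 276 FPKM in the BCB-positive oocytes, and CANX at 25.2, 26.5 and 24.3 FPKM in the BCB-negative and 30.3, 22.9 and 25.3 FPKM in the BCB-positive oocytes, and both overlapped. P4HB, another disulfide isomerase, was not analysed here. Of 8 compared genes of the unfolded protein response, 0 were called in either direction, beside the same shares of all genes. The median was 0.11 for ER folding (0.05 without BCB-positive oocyte 3) and 0.17 for the unfolded protein response (0.23 without it). XBP1, a transcription factor of that response, was at most 2.59 FPKM, and ATF4 was at 247, 160.3 and 226 FPKM in the BCB-negative and 131, 230.2 and 209 FPKM in the BCB-positive oocytes. Of 8 compared genes of mitochondrial folding, 0 were called, beside the same shares of all genes. Their median was -0.11, which became 0.01 without BCB-positive oocyte 3.

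Of 17 members with at least 2 listed transcripts, a mean of at least 1 FPKM and a value in every oocyte, 1 shifted between transcripts by at least 20 percentage points without overlap, beside 4.67 percent of 3215 genes. In DNAJB9 the longer transcript, of 1978 bases, made up 88.6, 100 and 89.3 percent of the gene's FPKM in the BCB-negative oocytes, against 79.9, 62.9 and 39.4 percent in the BCB-positive ones. The shorter transcript, of 1831 bases, accounted for the rest, so its mean share was 7.4 percent in BCB-negative and 39.3 percent in BCB-positive oocytes. Without BCB-positive oocyte 3, BCB-positive oocytes 1 and 2 were still below each BCB-negative oocyte. Shares of transcripts are estimates from reads that both may yield, so all are uncertain. Small gaps such as that between 88.6 and 79.9 percent are the more so. DNAJB6 was ordered as well, its main transcript at 91.2, 95.7 and 97.4 percent against 87.7, 74.2 and 67.4 percent, but its means were 18.3 points lower in BCB-positive oocytes, under the limit. For DNAJC2 and DNAJC27, called at the level of the gene, the estimated shares varied from oocyte to oocyte and overlapped between the classes. The transcripts of DNAJC27 were of 4703 and 4679 bases, so close in length that its shares are uncertain. In DNAJC2 the transcript of 2174 bases made up 10.4, 58.4 and 0 percent in the BCB-negative oocytes. Its share was 100, 71.8 and 51.2 percent in the BCB-positive oocytes, where the last lay below BCB-negative oocyte 2.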

How the data were processed

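Single-oocyte cDNA was primed with oligo-dT, amplified by PCR and sequenced, per the labels' protocols. Tools listed by the submitters' processing notes are BWA, Cufflinks and RSEM, on build Sscrofa10.2; their roles and versions were not given in the sources used here. Each deposited file gave an expected count and an FPKM for each gene and each transcript above 0, and absent genes were set to 0. FPKM values were scaled by the authors to length and depth, per the file headers, and expected counts in the deposited files were estimates that need not be whole. A gene with counts farther than 0.005 from whole in any oocyte was taken to share reads, which held for 10 of the 68 members compared. Depth limits the members of few counts, such as DNAJC5.

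Symbols came from a RefSeq table of Sscrofa11.1, in which 13936 of 19300 gene IDs matched. HSPA1A and HSPA1B both matched HSP70.2, which was counted once. The table was used for names and for overlap of genes only. The difference of mean log2(FPKM + 1) was computed for the 11493 genes averaging 1 FPKM or more, with no test, since a class is 1 sample of 3 cells. Members and lists were chosen with earlier results of these data known. Values are named for each called member, the 4 most abundant genes of a family (every gene of the HSP90, HSP60, CCT and PDIA families), the gene of largest spread of at least 5 FPKM, and called genes of the other lists. Further members are named to account for all, after their values were seen. Alternatives were another pseudocount, other filters, scaling by size factors or to a common sum, CPM from expected counts, a 2-fold limit and leaving out each oocyte. Leaving out HSPA8, and leaving out members with shared reads, were added after seeing the data. Python 3.11.15, numpy 2.4.6, pandas 2.3.3 and scipy 1.17.1 were used.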

Additional observations from a re-analysis of the deposited data

How the results depend on the processing

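The direction of the median difference held under each alternative run. The direction of a call could turn only under another scaling. Another pseudocount, filter or limit, or leaving out an oocyte, keeps the order of the oocytes. Leaving out an oocyte also makes the order rule easier to meet. The 8 called members were all called again under size factors, with a common sum and as CPM. The same held with a pseudocount of 0.1 FPKM and with no filter, but these settings could not remove a call. A 2-fold limit left 3 members higher and a mean of at least 5 FPKM left 1 lower. Scaling to a common sum added DNAJA1 and DNAJC8. Leaving out 1 oocyte in turn gave 4 to 22 members higher and 2 to 4 lower. Dropping BCB-positive oocyte 1 gave the 22 (beside 13.7 percent of all genes), BCB-positive oocyte 2 gave 12 (beside 10.3 percent) and BCB-negative oocyte 2 gave 11 (beside 8.74 percent). The 4 lower came with BCB-positive oocyte 3 dropped (beside 4.4 percent). The members' median difference was 0.19 under size factors, 0.36 with a common sum and 0.13 to 0.38 with 1 oocyte left out, while that of all genes was 0.02 under size factors and 0.19 with a common sum. Summed PDIA differed by -0.0059 under size factors and by 0.19 with a common sum, where its classes did not overlap. DNAJC5 differed by -2.37 with the smaller pseudocount. Beyond the left-out oocytes, the cause of these shifts was not tested. No paired analysis was made, because the labels do not say whether a shared number links oocytes of the classes.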

Other observations

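HSPB9, a small heat shock protein known from the testis that averaged below 1 FPKM, was at 0.21, 0 and 0 FPKM in the BCB-negative and 2.77, 0.97 and 0.5 FPKM in the BCB-positive oocytes. All BCB-positive oocytes lay above the BCB-negative ones, but its counts summed to 1 (95% interval 0.03 to 5.57) in the BCB-negative and 22 (95% interval 13.8 to 33.3) in the BCB-positive oocytes (exact Poisson intervals, counting error only). The estimated shares of the HSPBP1 transcripts, of 1649 and 1633 bases, varied without order by class. The longer made up 0, 0 and 0 percent of the gene's FPKM in the BCB-negative and 0, 100 and 92.1 percent in the BCB-positive oocytes. Reads may come from either of transcripts so close in length, so this shift is uncertain.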
